A study of Mus musculus with 2 samples.

Results

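The subject here is the family of VEGF (vascular endothelial growth factor) ligands and receptors in the pressure-loaded mouse heart. Its 10 members were taken by their symbols from the 32589 genes of the deposited gene lists, and all 10 were found once: the 5 ligand genes Vegfa, Vegfb, Vegfc, Vegfd and Pgf, the receptor tyrosine kinase genes Flt1, Kdr and Flt4, and the co-receptor genes Nrp1 and Nrp2. Single-cell RNA counts were available for 2 libraries of left ventricle, each made from 3 hearts mixed into 1 sample and collected 6 weeks after transverse aortic constriction (TAC), an operation that constricts the aorta and so puts the left ventricle under pressure. One library came from mice labelled p53 knockout and the other from mice labelled wild-type, and both had TAC, so no unoperated heart enters the comparison. The way in which Trp53 was deleted, the strain, the age and the sex of the mice are not given in the sources used here. With 1 library per label and animals pooled, the spread between hearts cannot be measured: no p-value is given, and each 95% interval below covers counting error only.

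VEGF ligands are secreted dimers that bind receptor tyrosine kinases on endothelial cells. VEGF-A acts through VEGFR2, the product of Kdr, to drive endothelial growth, survival and permeability, while VEGFR1, the product of Flt1, binds VEGF-A, VEGF-B and placental growth factor tightly and partly acts as a decoy. VEGF-C and VEGF-D act mainly through VEGFR3, the product of Flt4, on lymphatic vessels, and the neuropilins Nrp1 and Nrp2 hold VEGF ligands and class 3 semaphorins at the cell surface. In the heart, cardiomyocytes are a known source of VEGF-A for the capillaries that run beside them.

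The promoters of 4 members are shown because the data turn on these genes. Vegfa and Vegfb are the ligands followed across cardiomyocyte-like clusters, and Flt1 and Kdr are the main receptors of blood endothelium. Each sequence was taken from the 250 bases before the RefSeq start site of the gene (GRCm38.p6, minus strand of the chromosome) and is written 5′ to 3′ along the gene. For Kdr it has 247 bases, since the mm10 annotation used below starts the gene slightly earlier. The windows are chr17:46032378-46032627 for Vegfa, chr19:6987652-6987901 for Vegfb, chr5:147726012-147726261 for Flt1 and chr5:75978459-75978705 for Kdr. Capitals mark every match, on either strand, to 5 searched motifs. These were ACGTG, the core of hypoxia response elements, the GC box GGGCGG, the TATA box TATAAA, the ETS motif CAGGAA and a variant of it that reads CCGGAA.
Vegfa: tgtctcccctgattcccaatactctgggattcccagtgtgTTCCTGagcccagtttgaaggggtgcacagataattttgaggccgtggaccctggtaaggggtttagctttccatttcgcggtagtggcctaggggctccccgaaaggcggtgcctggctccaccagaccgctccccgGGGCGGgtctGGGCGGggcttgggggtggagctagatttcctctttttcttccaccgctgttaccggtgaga
Vegfb: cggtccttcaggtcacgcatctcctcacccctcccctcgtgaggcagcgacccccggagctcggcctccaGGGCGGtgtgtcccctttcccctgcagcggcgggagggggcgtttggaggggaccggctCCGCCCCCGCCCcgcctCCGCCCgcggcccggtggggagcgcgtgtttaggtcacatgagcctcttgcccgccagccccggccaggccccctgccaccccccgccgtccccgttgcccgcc
Flt1: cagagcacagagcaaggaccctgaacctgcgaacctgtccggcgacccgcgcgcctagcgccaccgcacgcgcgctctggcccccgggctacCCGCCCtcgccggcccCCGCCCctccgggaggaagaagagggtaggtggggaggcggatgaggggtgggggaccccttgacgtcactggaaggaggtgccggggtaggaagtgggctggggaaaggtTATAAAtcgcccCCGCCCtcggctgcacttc
Kdr: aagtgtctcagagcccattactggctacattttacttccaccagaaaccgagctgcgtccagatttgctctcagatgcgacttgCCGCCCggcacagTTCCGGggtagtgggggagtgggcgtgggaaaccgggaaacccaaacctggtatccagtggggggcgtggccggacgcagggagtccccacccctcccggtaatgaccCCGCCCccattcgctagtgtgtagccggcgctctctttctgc
Vegfb held 4 GC box matches in a window of 76.4% G and C. Vegfa held 2 GC boxes and 1 CAGGAA match, Flt1 held 3 GC boxes and 1 TATA box, and Kdr held 2 GC boxes and 1 CCGGAA match. None of these matches overlap.

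Over the 12 RefSeq windows that matched the 10 members, 10 held a GC box, 1 held the hypoxia core, 2 held CAGGAA, 1 held the CCGGAA variant and 2 held a TATA box. Of 32817 windows of the same length in the RefSeq table, 32.7% held the GC box, 16.6% the hypoxia core, 25.7% CAGGAA, 12.02% the CCGGAA variant and 12.4% the TATA box. The single ACGTG match lay in the window of a second Vegfa start site, at position 46025163 of chromosome 17, and not in the window printed above. These matches describe letters only, and binding was not measured.

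In the mm10 annotation the ligand genes lie on 5 chromosomes: Vegfa on 17 (46016993 to 46032369, minus strand), Vegfb on 19 (6982473 to 6987651, minus), Vegfc on 8 (54077606 to 54187096, plus), Vegfd on X (164373378 to 164402650, plus) and Pgf on 12 (85166635 to 85177790, minus). Flt1 (147561604 to 147726011, minus) and Kdr (75932827 to 75978458, minus) are both on chromosome 5, and Flt4 is on chromosome 11 (49609263 to 49652739, plus). Nrp1 is on chromosome 8 (128358604 to 128503363, plus) and Nrp2 on chromosome 1 (62703285 to 62818695, plus). Nrp2 overlaps the antisense gene Gm29083, which the files also count, and since the use of strand in counting is not given in the sources used here, reads of the pair cannot be told apart.

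The library labelled p53 knockout (below, the KO-labelled library) held 20918824 unique molecular identifiers (UMIs, counts of tagged RNA molecules) in 10118 barcodes, and the library labelled wild-type (the WT-labelled library) 18897913 UMIs in 16060 barcodes. Filters kept 9298 cells of the KO-labelled and 14763 cells of the WT-labelled library, whose median depths were 1567 and 937 UMIs. Trp53 itself was not lower under the knockout label, at 55.0 CPM against 38.7 CPM in the WT-labelled library (CPM, a gene's UMIs per 1000000 nuclear-encoded UMIs), although 3′ reads can lie outside a deletion. Xist, the RNA that silences one X chromosome in females, stood at 929 CPM in the KO-labelled library and 2.37 CPM in the WT-labelled library. Y-linked Ddx3y had 0.918 CPM and 160 CPM in the same libraries, KO-labelled first, so the sex of the mice and the genotype label cannot be told apart. The libraries shared 105 barcodes, and 92 of these were kept in both, 0.989% of the KO-labelled and 0.623% of the WT-labelled cells. The labels call the cells cardiomyocytes, but the marker genes placed cells in many classes, and cardiomyocyte-like cells were 9.25% of kept cells in the KO-labelled library and 32.4% in the WT-labelled library.

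Each class is called "like" a cell type after marker genes, with none of the 10 members among the genes used for clustering, and 10 classes held at least 50 cells of both libraries. The same clusters did not supply a class evenly. KO-labelled fibroblast-like cells lay mostly in cluster 4 (1855 of 2008 cells; leading genes Cilp, Nox4 and Postn) and WT-labelled ones mostly in cluster 0 (3085 of 3219; Abca6, Lvrn and Abca8a). Vascular endothelial-like cells lay mostly in cluster 6 in the KO-labelled library (1294 of 1968; Stc1, Igfbp3 and D5Ertd615e) and in cluster 1 in the WT-labelled library (2515 of 2747; Dach1, Ccdc85a and Gabrb2). Endocardial-like cells of the KO-labelled library were mostly in cluster 8 (1208 of 1641; Nrg1, Selp and Smoc1), which held 11 WT-labelled cells, while 1618 of 1629 WT-labelled ones were in cluster 3 (Cytl1, H19 and Npr3). Cardiomyocyte-like cells of the KO-labelled library came mainly from clusters 12 (457 cells; Myh7 among its leading genes) and 9 (306 cells, rich in mitochondrial RNA), and those of the WT-labelled library from clusters 2 (2496), 7 (1446) and 9 (784). Values of members within clusters that both libraries share are therefore given beside many of the class values.

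**Figure D1:**
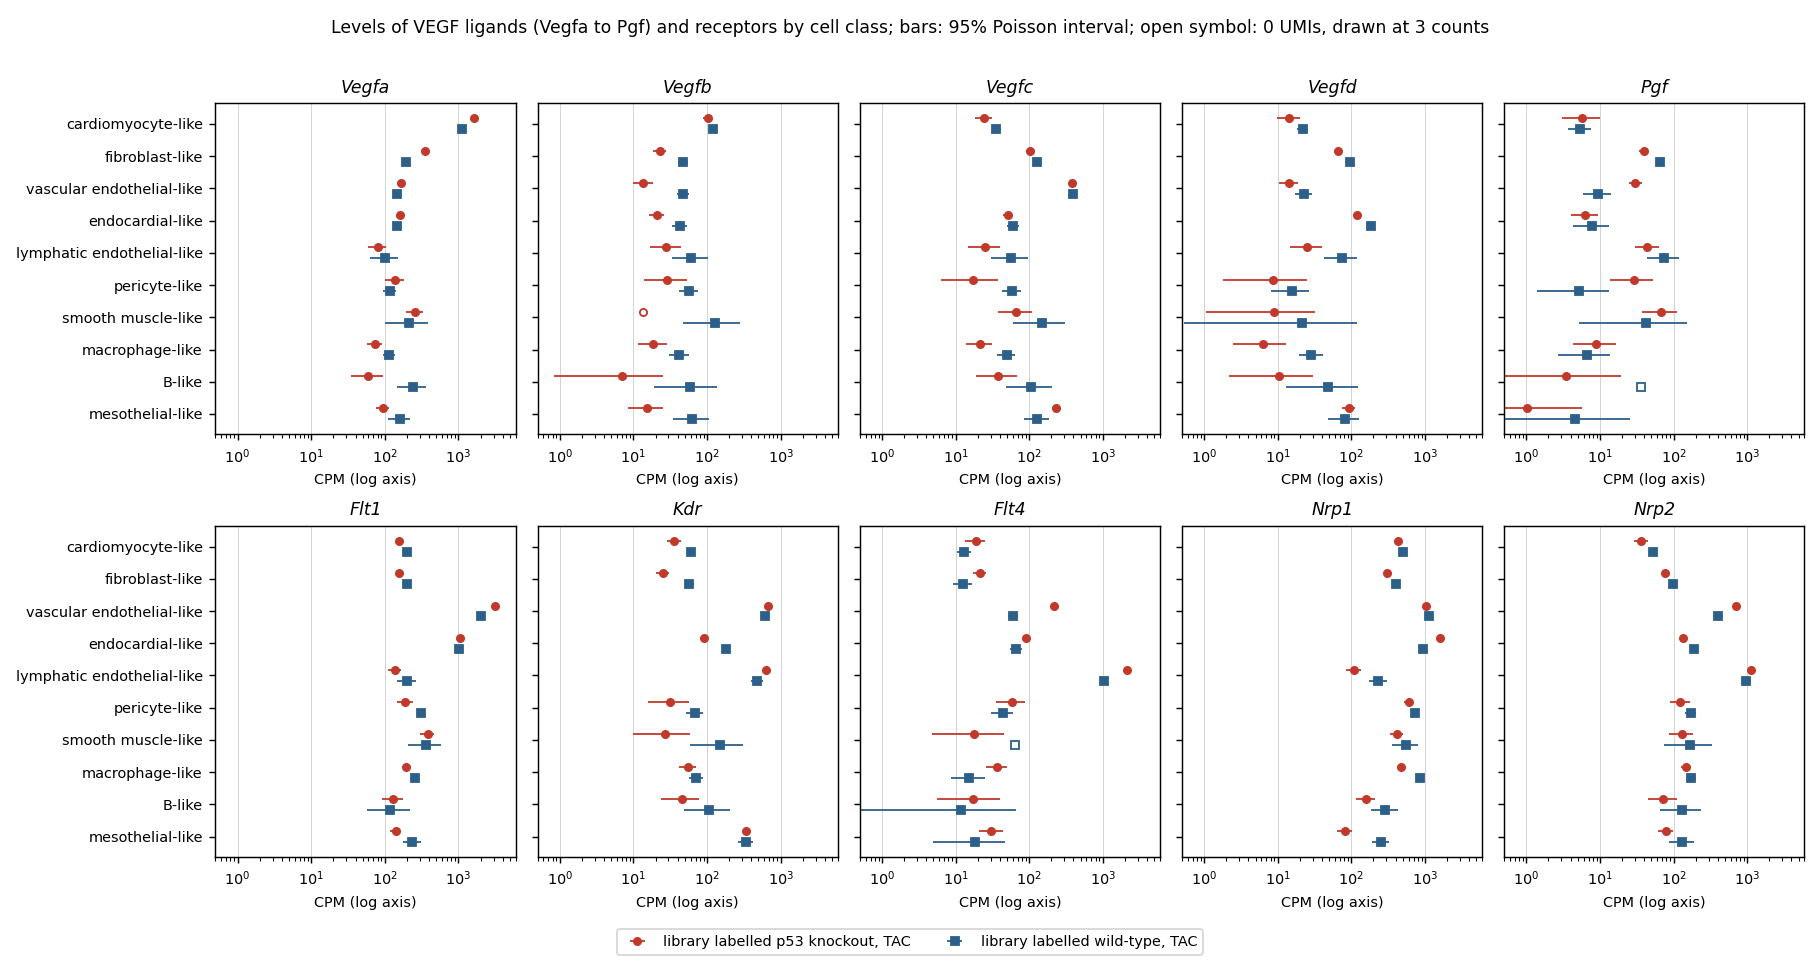
Level of each ligand and receptor in 10 cell classes, in CPM on a log axis, with circles for the library labelled p53 knockout and squares for the library labelled wild-type; bars are 95% Poisson intervals and open symbols, drawn at 3 counts, mark 0 UMIs. Vegfa stands highest in cardiomyocyte-like cells (1626 and 1122 CPM), Flt1 in vascular endothelial-like cells (3156 and 2025 CPM) and Flt4 in lymphatic endothelial-like cells (2116 and 1032 CPM).

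The ligands and receptors were highest in different classes, and this order was mostly shared by both libraries. Among the 10 classes in the plot of levels, Vegfa was highest in cardiomyocyte-like cells, Vegfc in vascular endothelial-like cells and Vegfd in endocardial-like cells of both libraries. Flt1 and Kdr were highest in vascular endothelial-like cells, and Flt4 and Nrp2 in lymphatic endothelial-like cells, again in both. The other 3 members changed place: Nrp1 was highest in endocardial-like cells of the KO-labelled library and in vascular endothelial-like cells of the WT-labelled one, Pgf in smooth muscle-like and lymphatic endothelial-like cells, and Vegfb in cardiomyocyte-like and smooth muscle-like cells. The smooth muscle-like values of Vegfb rest on 0 UMIs in the KO-labelled library and 6 in the WT-labelled library, and those of Pgf on 15 and 2.

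Some neighbours in these orders did not differ beyond counting error. Vegfa in the KO-labelled library ran from cardiomyocyte-like to fibroblast-like (348 CPM), smooth muscle-like (257 CPM) and vascular endothelial-like cells (166 CPM), each step beyond counting error, while in the WT-labelled library no neighbours below cardiomyocyte-like cells differed. Kdr had vascular and lymphatic endothelial-like cells within counting error of each other in the KO-labelled library and apart in the WT-labelled library, with mesothelial-like cells next in both. Flt1 ran from vascular endothelial-like to endocardial-like and smooth muscle-like cells in both libraries, and Nrp2 from lymphatic to vascular endothelial-like cells, with each of these steps beyond counting error. For Pgf the 3 highest classes, smooth muscle-like, lymphatic endothelial-like and fibroblast-like cells, did not differ between neighbours in either library, nor did cardiomyocyte-like and smooth muscle-like cells for Vegfb in the WT-labelled library. Each class had all 10 genes of its own marker list detected in both libraries.

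Free RNA can add UMIs of a gene to cells that do not express it, so B-like cells, which are not endothelial or muscle cells, served as a background, although B cells can make VEGF-A and their Vegfa need not be free RNA alone. The rule was that the ratio to B-like cells of the same library had a log2 interval above 0 in both libraries. Among the classes compared, Vegfa met this in cardiomyocyte-like cells alone and Vegfc in vascular endothelial-like cells alone. Vegfd met it in endocardial-like cells alone and Flt4 in lymphatic endothelial-like cells alone. Pgf met this in fibroblast-like and lymphatic endothelial-like cells, Kdr in vascular endothelial-like, lymphatic endothelial-like and mesothelial-like cells, and Nrp2 in vascular and lymphatic endothelial-like cells. Flt1 met it in 4 classes and Nrp1 in 6. Vegfb met it in no class, and B-like cells of the WT-labelled library held 59.5 CPM of it from 5 UMIs. The same cells held only 20 UMIs of Vegfa, 9 of Vegfc, 4 of Vegfd and 1 of Flt4. In the KO-labelled library taken alone, Vegfa was above B-like cells in 6 classes, Vegfc in 3, Vegfd in 3 and Flt4 in 4. A class that did not meet the rule is therefore not shown to lack the gene. The background was not equal in the libraries: the 10 cardiomyocyte markers, all detected in every class, summed to 1732 to 2576 CPM in the other 9 classes of the KO-labelled library and to 8057 to 13015 CPM in those of the WT-labelled library, against 60272 and 60816 CPM in cardiomyocyte-like cells.

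A member or gene is counted as differing where its summed level differed at least 2-fold between the libraries, among genes with at least 20 UMIs over both. In cardiomyocyte-like cells 0 of 10 members differed in either direction, while 4.31% of all genes were higher and 15.8% lower in the KO-labelled library. In fibroblast-like cells 0 members were higher (6.58% of all genes) and 2 lower, Vegfb and Kdr (11.6%). Vascular endothelial-like cells had 2 higher, Pgf and Flt4 (6.24%), and 1 lower, Vegfb (12.4%). For endocardial-like cells the count was 0 higher (6.34%) and 2 lower, Vegfb and Kdr (11.1%). Lymphatic endothelial-like cells had 1 higher, Flt4 (8.9%), and 4 lower, Vegfb, Vegfc, Vegfd and Nrp1 (8.72%). The values of Vegfb, Vegfc and Vegfd there rest on 13 to 19 UMIs per library. None of the members counted as lower in the classes above was over the B-like level there in both libraries. Of those counted as higher, only Flt4 in lymphatic endothelial-like cells was.

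In the smaller classes fewer members could be measured. Macrophage-like cells had 1 of 9 measured members higher, Flt4 (7.5% of all genes), and 3 lower, Vegfb, Vegfc and Vegfd (10.4%). Of 8 measured in pericyte-like cells, 0 were higher (5.32%) and 2 lower, Vegfc and Kdr (12.1%). Of 9 in mesothelial-like cells, 0 were higher (12.4%) and 2 lower, Vegfb and Nrp1 (13.2%). B-like cells had 6 measured, with 0 higher (15%) and 3 lower, Vegfa, Vegfc and Kdr (12.9%). Of 5 in smooth muscle-like cells, 0 were higher (18.7%) and 1, Vegfc, lower (14.4%). Outside B-like cells themselves, no member counted here as higher or lower was above the B-like level in both libraries. Over all kept cells Flt4 was higher (12%) and Vegfb lower (10.9%).

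**Figure D2:**
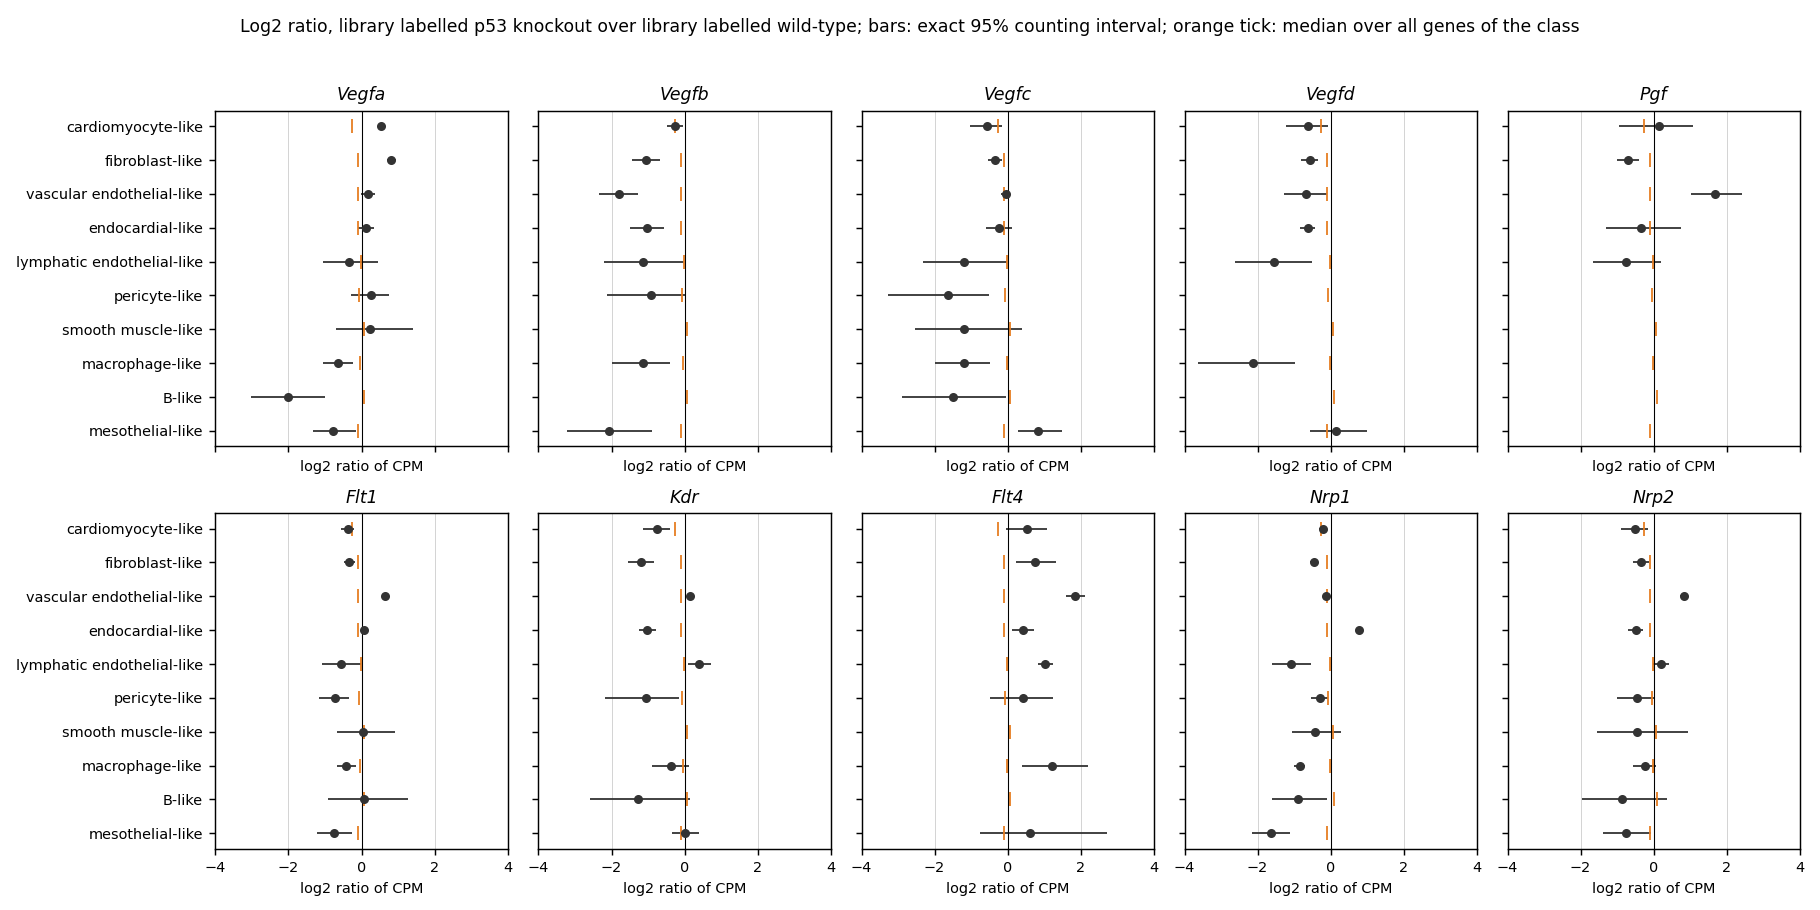
Log2 ratio of each member's CPM, library labelled p53 knockout over library labelled wild-type, in each class with at least 20 UMIs over both libraries; bars are exact 95% counting intervals and the orange tick is the median over all measured genes of the class. Flt4 lies above 0 in all 8 classes where it was measured and Vegfb below 0 in all 8 of its classes, while the other members go both ways. Several of these Flt4 and Vegfb levels were not above that of B-like cells in either library.

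Vegfa, the ligand that drives blood vessel growth, was higher in cardiomyocyte-like cells of the KO-labelled library. It had 1626 CPM (interval 1573 to 1679) from 3645 UMIs in these cells, against 1122 CPM (1096 to 1149) from 6878 UMIs in the WT-labelled library, a log2 ratio of 0.54 (0.48 to 0.59). The median gene of this class had a log2 ratio of -0.25, so relative to it the Vegfa ratio was 0.79. After each cell was thinned to 500 UMIs, which left out no cell, 37.8% of KO-labelled and 33.3% of WT-labelled cardiomyocyte-like cells had a Vegfa UMI, and all UMIs taken, 59.7% and 52.0% had one. In B-like cells the thinned shares were 3.39% and 7.23%, at median depths of 1739 and 986 UMIs in cardiomyocyte-like and about 1111 and 884 UMIs in B-like cells.

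The direction was the same in each cardiomyocyte-like cluster with at least 50 cells of both libraries. In cluster 12, led by Myh7, Vegfa had 2033 CPM in KO-labelled and 1356 CPM in WT-labelled cells (log2 ratio 0.58, interval 0.31 to 0.87). Cluster 2 had 1555 CPM in the KO-labelled and 1015 CPM in the WT-labelled library (0.62, 0.26 to 0.95), from 75 UMIs in 69 KO-labelled cells. The cluster rich in mitochondrial RNA, cluster 9, had 452 CPM in KO-labelled and 251 CPM in WT-labelled cells (0.85, 0.57 to 1.13), the lowest levels among the cardiomyocyte-like clusters. Vegfa thus differed more between clusters of 1 library than between the libraries.

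In the other classes compared, Vegfa was lower in level than in cardiomyocyte-like cells and went both ways. Fibroblast-like cells had 348 CPM in the KO-labelled library and 197 CPM in the WT-labelled library (0.82, 0.69 to 0.95), and thinned shares of 13.7% and 8.76%. Both fibroblast-like clusters went the same way, with 349 and 235 CPM in cluster 4 and 317 and 195 CPM in cluster 0, KO-labelled value first. The fibroblast-like level was 21.4% of the cardiomyocyte-like level in the KO-labelled library, where the summed cardiomyocyte markers stood at 2.92% of theirs and the highest single marker at 8.85%. In the WT-labelled library the same values were 17.5% for Vegfa, 13.6% for the summed markers and 32.8% for the highest single marker. At a finer clustering resolution the highest fibroblast-like level lay in a cluster led by Col11a1, Thbs1 and Col1a1, with 576 CPM from 733 KO-labelled cells and 397 CPM from 66 WT-labelled cells.

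In macrophage-like cells Vegfa had 72.8 CPM in the KO-labelled and 113 CPM in the WT-labelled library (-0.64, -1.06 to -0.22). Mesothelial-like cells had 93.6 CPM and 159 CPM (-0.77, -1.34 to -0.16), and B-like cells 59.1 CPM and 238 CPM (-2.003, -3.03 to -1.003) from 17 and 20 UMIs, the KO-labelled value first in each. In these 3 classes of the WT-labelled library Vegfa stood at 10.1%, 14.1% and 21.2% of its cardiomyocyte-like level, and the summed cardiomyocyte markers at 13.95%, 15.7% and 21.4% of theirs. In the KO-labelled library Vegfa stood at 4.48%, 5.76% and 3.63%, and the markers at 3.96%, 2.87% and 4.27%. The part of free cardiomyocyte RNA in these differences was not tested. Adipocyte-like cells, 57 in the KO-labelled library, had 1491 CPM of Vegfa (1284 to 1721), and 31 cells of the WT-labelled library, under the minimum of 50 set for a comparison, had 1081 CPM (800.0 to 1430). These intervals hold the cardiomyocyte-like levels of 1626 CPM and 1122 CPM, so Vegfa was highest in cardiomyocyte-like cells only among the classes compared.

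Vegfb, a ligand of VEGFR1 linked to fatty acid handling in muscle, was lower in the KO-labelled library in all 8 classes where it was measured, with an interval below 0 in 7, except that other processing gave 0.11 in endocardial-like cells (thinned to 500 UMIs) and 0.0063 in cardiomyocyte-like cells (another scaling). In cardiomyocyte-like cells it had 102 CPM (89.3 to 116) in the KO-labelled and 122 CPM (113 to 131) in the WT-labelled library, a log2 ratio of -0.25 (-0.47 to -0.04). The median gene of the class had the same ratio to within 0.01, and under median-of-ratios scaling the Vegfb ratio was 0.0063, so its direction here rests on the scaling. Thinned shares of cells with a Vegfb UMI were 4.88% and 4.98%, with 0.847% and 2.41% in B-like cells, and without thinning the cardiomyocyte-like shares were 17.6% and 11.4%.

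Larger ratios stood in classes with low Vegfb levels. Vascular endothelial-like cells had 13.6 CPM in the KO-labelled and 47.2 CPM in the WT-labelled library (-1.79, -2.33 to -1.29). Fibroblast-like cells had 23.0 and 47.7 CPM (-1.05), endocardial-like cells 20.8 and 42.7 CPM (-1.04) and mesothelial-like cells 15.3 and 63.5 CPM (-2.06), KO-labelled first. In the WT-labelled library these levels lay within the interval of the B-like level, 59.5 CPM (19.3 to 139). Within shared clusters the Vegfb ratios were -0.56 and -0.81 in fibroblast-like clusters 0 and 4 and -0.70 in endocardial-like cluster 3. All of these were under 2-fold, with intervals that hold 0. In vascular endothelial-like clusters 1 and 6 they were -1.57 and -1.50, with intervals below 0. Vegfb in fibroblast-like cells was at 22.5% of its cardiomyocyte-like level in the KO-labelled and 39.3% in the WT-labelled library, beside 2.92% and 13.6% for the summed cardiomyocyte markers. The part of free cardiomyocyte RNA in these ratios was not tested.

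**Figure D3:**
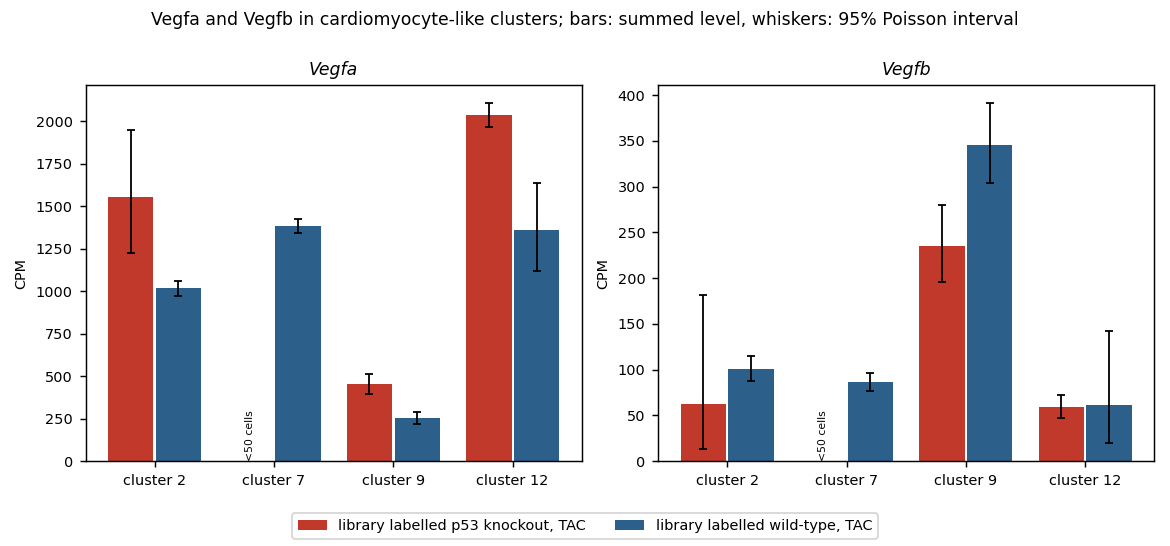
CPM of Vegfa (left) and Vegfb (right) in the 4 cardiomyocyte-like clusters, with the library labelled p53 knockout left of the library labelled wild-type and 95% Poisson intervals as whiskers; cluster 7 held 28 cells of the knockout-labelled library and is not drawn for it. Vegfa is lowest and Vegfb highest in cluster 9, the cluster rich in mitochondrial RNA, in both libraries.

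The 2 cardiomyocyte ligands stood at opposite ends in cardiomyocyte-like cluster 9, where Vegfa was lowest and Vegfb highest. Cluster 9, with a median mitochondrial share of 21.2%, had the highest Vegfb, at 235 CPM (196 to 280) in KO-labelled and 346 CPM (304 to 391) in WT-labelled cells. Cluster 12, with a median mitochondrial share of 1.01%, had 58.7 CPM and 61.1 CPM of Vegfb, from 94 KO-labelled and 5 WT-labelled UMIs. Per Vegfb UMI there were 1.92 Vegfa UMIs (1.54 to 2.40) in cluster 9 of the KO-labelled library and 0.726 (0.597 to 0.882) in that of the WT-labelled library. Cluster 12 had 34.6 (28.2 to 42.9) in the KO-labelled and 22.2 (9.23 to 69.7) in the WT-labelled library. Such ratios compare clusters only, since 3′ capture need not be equal for the 2 genes. The whole cardiomyocyte-like class had 15.9 Vegfa UMIs per Vegfb UMI (13.9 to 18.3) in the KO-labelled library and 9.23 (8.56 to 9.97) in the WT-labelled library.

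Vegfc, the main lymphatic growth factor, had its highest level in vascular endothelial-like cells and did not differ there beyond counting error: 382 CPM (361 to 404) in the KO-labelled and 396 CPM (371 to 421) in the WT-labelled library, a log2 ratio of -0.05 (-0.17 to 0.07). Within both clusters of this class, however, it was lower in the KO-labelled library. Cluster 1 had 182 CPM in KO-labelled and 312 CPM in WT-labelled cells (-0.77, -1.08 to -0.49). Cluster 6 had 431 CPM and 924 CPM in the same order (-1.10, -1.28 to -0.92). The class ratio near 0 goes with cluster makeup: cluster 6, the higher of the pair in each library, held 1294 of 1968 vascular endothelial-like cells in the KO-labelled library and 232 of 2747 in the WT-labelled library. Thinned shares of cells with a Vegfc UMI were 11.5% and 11.2% over the class, against 2.54% and 3.61% of B-like cells, and 24.3% and 17.7% without thinning.

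At the finer resolution Vegfc went both ways within the class. A cluster led by Igfbp5, Stc1 and Wnt9b, with 569 KO-labelled and 91 WT-labelled cells, had 627 CPM in the KO-labelled and 247 CPM in the WT-labelled library (1.33, 0.86 to 1.88). A cluster led by Depp1, Btnl9 and Sema3g, with 1047 and 131 cells, had 198 CPM in KO-labelled and 684 CPM in WT-labelled cells (-1.79, -2.11 to -1.46). Another, led by G630055G22Rik, Kirrel3 and Cyp26b1, had 512 CPM and 980 CPM (-0.92, -1.48 to -0.44), and the largest, led by Dach1, 227 CPM and 285 CPM (-0.32, -0.77 to 0.09). The direction of Vegfc in blood endothelium thus depended on the cluster. In mesothelial-like cells Vegfc was higher in the KO-labelled library, at 231 CPM against 127 CPM in the WT-labelled library (0.84, 0.29 to 1.48), from 227 and 28 UMIs. The WT-labelled level was not above that of B-like cells, 107 CPM. Vegfc was lower in fibroblast-like cells as a class, at 101 CPM and 128 CPM (-0.34, -0.54 to -0.15). Within fibroblast-like clusters 0 and 4 its ratios were -0.15 and -0.19, with intervals that hold 0. The WT-labelled fibroblast-like level was not above that of B-like cells either.

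Vegfd, the other ligand of VEGFR3, is X-linked and was highest in endocardial-like cells, at 120 CPM (109 to 131) in the KO-labelled and 184 CPM (165 to 206) in the WT-labelled library (-0.62, -0.83 to -0.42). In cluster 3, which both libraries share, the levels were 88.8 CPM in KO-labelled and 185 CPM in WT-labelled cells (-1.05, -1.46 to -0.67), and cluster 8 of the KO-labelled library had 127 CPM. Fibroblast-like cells had 65.4 CPM in the KO-labelled and 96.9 CPM in the WT-labelled library (-0.57, -0.80 to -0.33). Neither fibroblast-like cluster showed this difference by itself: cluster 0 had 102 and 99.6 CPM and cluster 4 had 63.9 and 48.0 CPM, KO-labelled first, with both intervals holding 0. Mesothelial-like cells, another class with Vegfd, had 91.6 CPM and 81.6 CPM (0.13, -0.58 to 0.98). Thinned shares of endocardial-like cells with a Vegfd UMI were 4.63% and 6.998%, against 0.424% and 1.20% in B-like cells, and 16.0% and 13.6% without thinning.

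Pgf, placental growth factor, which binds VEGFR1 and is induced in stressed hearts, was the rarest member, with 378 UMIs in the KO-labelled and 335 UMIs in the WT-labelled library. Its level over all kept cells was the same, 20.4 CPM in each library, and the classes went in opposite directions. Vascular endothelial-like cells had 30.2 CPM (24.6 to 36.9) in the KO-labelled and 9.36 CPM (5.94 to 14.05) in the WT-labelled library (1.67, 1.025 to 2.41). Cluster 1 had 42.8 CPM and 10.8 CPM (1.98, 1.12 to 2.85), and cluster 6 had 71 UMIs in the KO-labelled library and 0 in the WT-labelled library. At the finer resolution only the vascular endothelial-like cluster led by Depp1 had a Pgf interval above 0, from 72 KO-labelled UMIs and 1 WT-labelled UMI. The ratios in the clusters led by Dach1 (0.88, 6 and 17 UMIs) and Igfbp5 (-0.62, 20 and 3 UMIs) had intervals that hold 0. Fibroblast-like cells as a class went the other way from vascular endothelial-like cells. They had 40.2 CPM in the KO-labelled and 65.1 CPM in the WT-labelled library (-0.69, -0.99 to -0.40). Within clusters 0 and 4, however, the ratios were 0.64 and 0.12 with intervals that hold 0. Lymphatic endothelial-like cells had 44.2 CPM and 74.0 CPM from 30 and 17 UMIs (-0.76, -1.65 to 0.21).

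**Figure D4:**
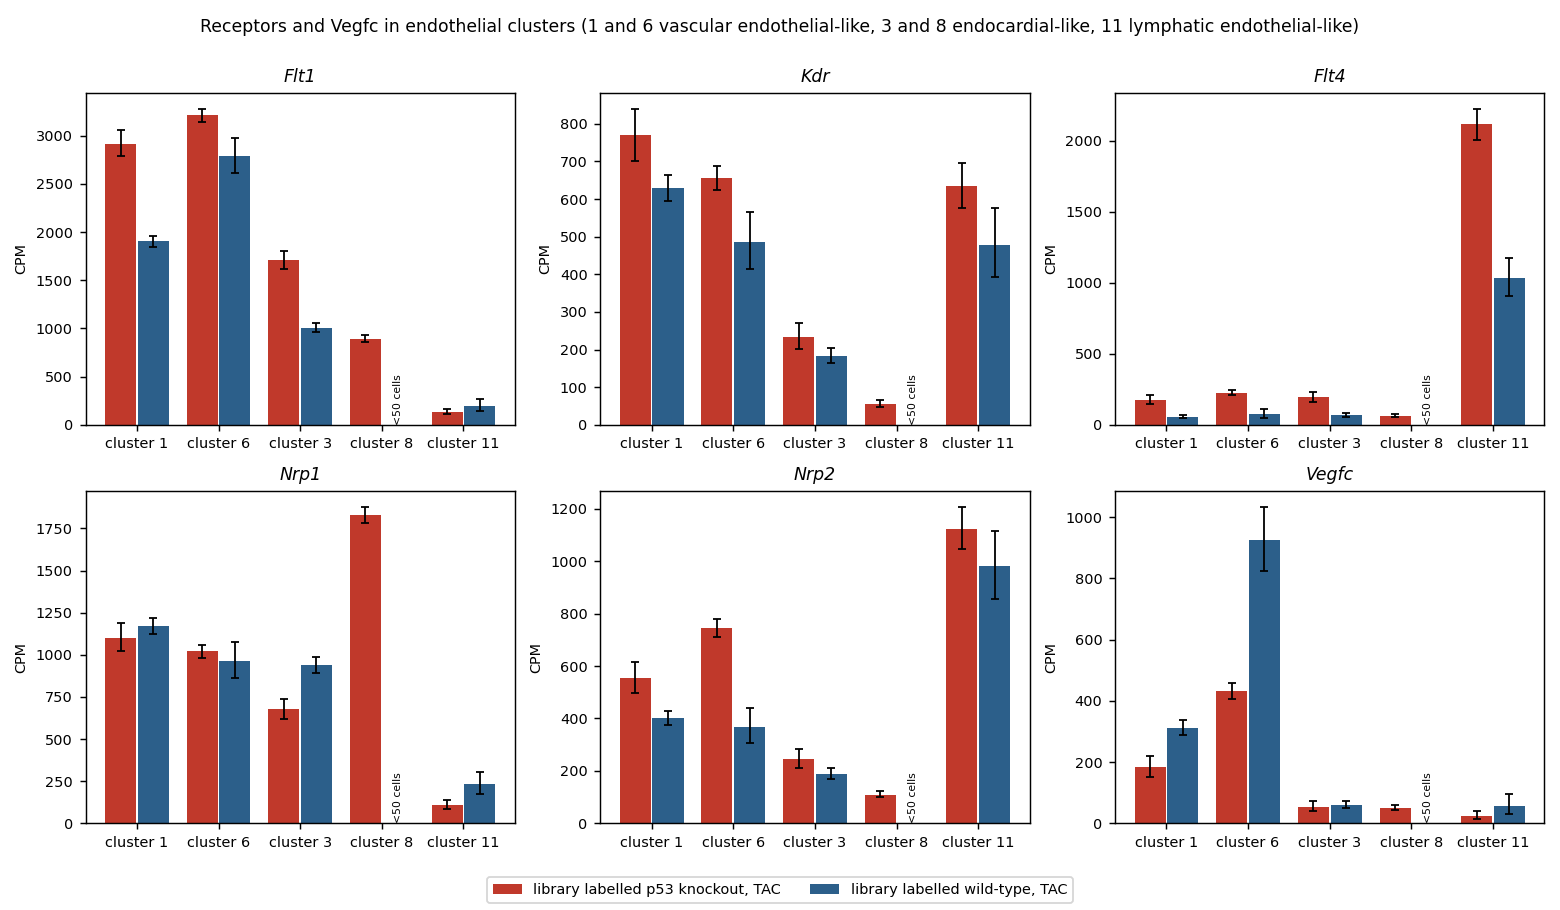
CPM of the 5 receptor genes and of Vegfc in endothelial clusters, with the library labelled p53 knockout left of the library labelled wild-type and 95% Poisson intervals as whiskers; cluster 8 held 11 cells of the wild-type-labelled library and is not drawn for it. Flt1, Kdr, Flt4 and Nrp2 are higher in the knockout-labelled library in clusters 1, 6 and 3, Vegfc is lower in clusters 1 and 6, and Nrp1 reaches 1830 CPM in cluster 8.

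Flt1, the gene of VEGFR1 and of its soluble decoy form, was higher in vascular endothelial-like cells of the KO-labelled library, at 3156 CPM (3095 to 3218) against 2025 CPM (1969 to 2082) in the WT-labelled library, a log2 ratio of 0.64 (0.59 to 0.69). After thinning, 67.1% of KO-labelled and 50.02% of WT-labelled cells had a Flt1 UMI, with 6.36% and 6.02% in B-like cells, and 86.3% and 63.7% of vascular endothelial-like cells had one before thinning. Cluster 1 gave 2920 CPM and 1904 CPM (0.62, 0.54 to 0.70), and cluster 6 gave 3213 CPM and 2791 CPM (0.20, 0.11 to 0.30), KO-labelled first. The direction held in both clusters, with a smaller ratio in cluster 6. The membrane and soluble forms cannot be told apart in these counts. The summed level of 10 angiogenic endothelial markers was also higher in these clusters of the KO-labelled library. It was 1488 CPM against 480 CPM in the WT-labelled library in cluster 1. Cluster 6 had 1436 CPM against 473 CPM, with 3 of the 10 at 0 in WT-labelled cells. A list of arterial markers was higher too, at 1500 against 1032 CPM in cluster 1 and 1411 against 918 CPM in cluster 6. A venous list was higher in cluster 1 and lower in cluster 6, and a capillary list was lower in both. Such sums do not give the direction of each gene. The part of these markers in the higher Flt1, Kdr, Flt4, Nrp2 and Pgf of vascular endothelial-like cells was not tested.

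In endocardial-like cells the Flt1 levels were 1047 CPM in the KO-labelled and 1006 CPM in the WT-labelled library (0.06, -0.02 to 0.14). The shared cluster 3 differed more, with 1708 CPM in KO-labelled and 1009 CPM in WT-labelled cells (0.76, 0.65 to 0.86), while cluster 8 of the KO-labelled library had 894 CPM. In 6 classes the Flt1 interval lay below 0: in pericyte-like cells, for example, the level was 187 CPM in the KO-labelled and 314 CPM in the WT-labelled library (-0.74, -1.16 to -0.34). Fibroblast-like cells were among the 6 (157 CPM in the KO-labelled and 197 CPM in the WT-labelled library), but within clusters 0 and 4 their ratios were 0.24 and 0.02, with intervals that hold 0. In fibroblast-like cells Flt1 was at 4.97% of its vascular endothelial-like level in the KO-labelled and 9.74% in the WT-labelled library, beside 7.07% and 11.3% for the 10 summed vascular endothelial markers, all of them detected. In smooth muscle-like cells the same markers summed to 670 CPM in the KO-labelled and 1673 CPM in the WT-labelled library, while Flt1 had 382 CPM and 360 CPM (0.05). The part of free endothelial RNA in the lower Flt1 of the 6 classes was not tested.

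Kdr, the gene of the main signalling receptor VEGFR2, differed little in vascular endothelial-like cells. The level was 677 CPM (649 to 706) in the KO-labelled and 609 CPM (579 to 641) in the WT-labelled library (0.15, 0.06 to 0.25), and both clusters were higher in the KO-labelled library, with 769 and 629 CPM in cluster 1 (0.29, 0.14 to 0.44) and 655 and 485 CPM in cluster 6 (0.43, 0.20 to 0.68). Thinned shares were 25.0% and 21.2%, against 3.81% and 7.23% in B-like cells, and 49.2% and 31.8% without thinning. Lymphatic endothelial-like cells had 634 CPM in the KO-labelled and 479 CPM in the WT-labelled library (0.40, 0.10 to 0.72). Mesothelial-like cells, which are not endothelial, also had Kdr above the B-like level with 343 CPM in the KO-labelled and 340 CPM in the WT-labelled library (0.00, -0.35 to 0.39).

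Kdr in endocardial-like cells was lower in the KO-labelled library over the class and higher in cluster 3, which both libraries share. The class had 90.04 CPM in the KO-labelled and 182 CPM in the WT-labelled library (-1.02, -1.24 to -0.80). Cluster 3 had 234 CPM in KO-labelled and 183 CPM in WT-labelled cells (0.35, 0.08 to 0.62), and cluster 8, almost all of it KO-labelled, had 56.6 CPM (48.6 to 65.4). The lower class level therefore goes with the cells of cluster 8. At the finer resolution the shared endocardial-like cluster held 205 KO-labelled and 1561 WT-labelled cells. Its Kdr levels were 230 CPM and 178 CPM, KO-labelled first (0.38, -0.04 to 0.76), with an interval that holds 0. Fibroblast-like cells had 24.9 CPM and 57.1 CPM (-1.19, -1.55 to -0.85), below the B-like levels of 45.2 CPM and 107 CPM, KO-labelled first. Within fibroblast-like clusters 0 and 4 the Kdr ratios were -0.60 and -0.26, both under 2-fold and with intervals that hold 0.

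Flt4, the gene of VEGFR3, was higher in the KO-labelled library in all 8 classes where it was measured, with an interval above 0 in 5, and in pericyte-like cells alone thinning to 500 UMIs turned it round (-0.22). In cardiomyocyte-like, fibroblast-like, macrophage-like and mesothelial-like cells, however, Flt4 was not above the B-like level in either library. Fibroblast-like cells had 21.3 CPM beside 17.4 CPM in B-like cells of the KO-labelled library, and 12.6 CPM beside 11.9 CPM in the WT-labelled library. The part of free endothelial RNA in the Flt4 ratios of these classes was not tested. Within cardiomyocyte-like clusters 2 and 12 the ratios were -0.99 and -0.52, from 0 and 20 KO-labelled UMIs, with intervals that hold 0. Lymphatic endothelial-like cells, its main site, had 2116 CPM (2008 to 2228) in the KO-labelled and 1032 CPM (905 to 1172) in the WT-labelled library (1.03, 0.84 to 1.24). Thinned shares were 59.9% and 36.2%, against 0.424% and 1.20% in B-like cells, and 84.9% and 55.3% without thinning. All lymphatic endothelial-like cells were in a single cluster, 324 of them KO-labelled and 199 WT-labelled.

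Blood endothelium showed the same direction for Flt4 at lower levels. Vascular endothelial-like cells had 217 CPM (201 to 233) in the KO-labelled and 60.3 CPM (50.9 to 70.8) in the WT-labelled library, a log2 ratio of 1.84 (1.59 to 2.11). Cluster 1 had 176 CPM and 58.0 CPM (1.60), cluster 6 had 226 CPM and 74.8 CPM (1.57) and the endocardial-like cluster 3 had 194 CPM and 66.8 CPM (1.54), KO-labelled first, and all 3 intervals lay above 0. Thinned shares in vascular endothelial-like cells were 9.35% in the KO-labelled and 2.26% in the WT-labelled library. Endocardial-like cells as a class had 89.3 CPM and 66.9 CPM (0.41, 0.11 to 0.73), with 65.0 CPM in cluster 8. Macrophage-like cells had 36.4 CPM and 15.3 CPM (1.23, 0.39 to 2.19) from 41 and 16 UMIs. In the WT-labelled library the Flt4 levels of macrophage-like, endocardial-like and vascular endothelial-like cells were not above the B-like level (11.9 CPM, 0.301 to 66.3, from 1 UMI) beyond counting error, so the size of these 3 ratios is uncertain. In the KO-labelled library the vascular endothelial-like and endocardial-like levels were above it.

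Nrp1, the co-receptor of VEGF-A and semaphorin 3A, was detected above the B-like level in more classes than any other member. Among the classes compared, each taken as a whole, it was higher in the KO-labelled library in endocardial-like cells alone. The class had 1613 CPM (1573 to 1653) in the KO-labelled and 945 CPM (901 to 992) in the WT-labelled library (0.77, 0.69 to 0.85). Cluster 3 went the other way, with 677 CPM in KO-labelled and 939 CPM in WT-labelled cells (-0.47, -0.62 to -0.33). At the finer resolution the shared endocardial-like cluster had 884 CPM and 978 CPM (-0.14, -0.34 to 0.05), KO-labelled first, with an interval that holds 0. Cluster 8 of the KO-labelled library had 1830 CPM (1784 to 1878), the highest Nrp1 level of any cluster with at least 50 cells. Thinned shares of endocardial-like cells with a Nrp1 UMI were 42.0% and 30.2%, against 5.51% and 6.02% in B-like cells, and 71.2% and 45.4% without thinning.

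In vascular endothelial-like cells Nrp1 had 1037 CPM in the KO-labelled and 1143 CPM in the WT-labelled library (-0.14, -0.21 to -0.07), and the intervals of both clusters held 0. Macrophage-like cells, a single cluster, had 477 CPM (437 to 519) in the KO-labelled and 861 CPM (805 to 919) in the WT-labelled library (-0.85, -1.01 to -0.70), with thinned shares of 16.6% and 27.7%. Pericyte-like cells had 599 CPM and 740 CPM (-0.30, -0.54 to -0.07). Cardiomyocyte-like cells had 426 CPM and 497 CPM (-0.22, -0.33 to -0.11), close to the -0.25 of the median gene of that class, and 0.04 under median-of-ratios scaling.

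Nrp2, the co-receptor for VEGF-C and semaphorin 3F, did not differ beyond counting error in lymphatic endothelial-like cells, where it had 1124 CPM (1046 to 1207) in the KO-labelled and 980 CPM (856 to 1117) in the WT-labelled library (0.20, -0.02 to 0.42). It was higher in vascular endothelial-like cells of the KO-labelled library, with 708 CPM (679 to 737) against 396 CPM (372 to 422) in the WT-labelled library (0.84, 0.73 to 0.95). Cluster 6 had 745 CPM and 368 CPM (1.01, 0.75 to 1.29) and cluster 1 had 553 CPM and 401 CPM (0.47, 0.28 to 0.65), KO-labelled first. Thinned shares in vascular endothelial-like cells were 23.2% and 14.3%, against 2.54% and 7.23% in B-like cells. In endocardial-like cells the class was lower, at 135 CPM and 190 CPM (-0.49, -0.69 to -0.29), and cluster 3 higher, at 244 CPM and 189 CPM (0.37, 0.10 to 0.63). At the finer resolution the shared endocardial-like cluster had 230 CPM and 189 CPM (0.29, -0.13 to 0.67), with an interval that holds 0.

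The mix of receptors per cell class therefore differed between the libraries in a way that can be read as UMIs of one receptor per UMI of another. Per Kdr UMI, vascular endothelial-like cells held 4.66 Flt1 UMIs (4.45 to 4.88) in the KO-labelled and 3.32 (3.13 to 3.52) in the WT-labelled library. Cluster 1 had 3.80 and 3.03, and cluster 6 had 4.90 (4.65 to 5.17) and 5.76 (4.87 to 6.85), KO-labelled first. Per Kdr UMI there were 0.320 Flt4 UMIs (0.293 to 0.348) in vascular endothelial-like cells of the KO-labelled library and 0.0989 (0.0829 to 0.117) in those of the WT-labelled library. Lymphatic endothelial-like cells had 3.34 Flt4 UMIs per Kdr UMI (2.996 to 3.73) in the KO-labelled and 2.15 (1.71 to 2.73) in the WT-labelled library. The Nrp1 to Nrp2 ratio was 1.47 in KO-labelled and 2.89 in WT-labelled vascular endothelial-like cells, and 11.95 and 4.99 in endocardial-like cells. Within endocardial-like cluster 3 it ran the other way, at 2.78 (2.34 to 3.31) in KO-labelled and 4.97 in WT-labelled cells (lower bound 4.41), and cluster 8 of the KO-labelled library had 16.7. Each of these ratios compares classes or libraries for 1 pair of genes and not the abundance of the genes within a pair.

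**Figure D5:**
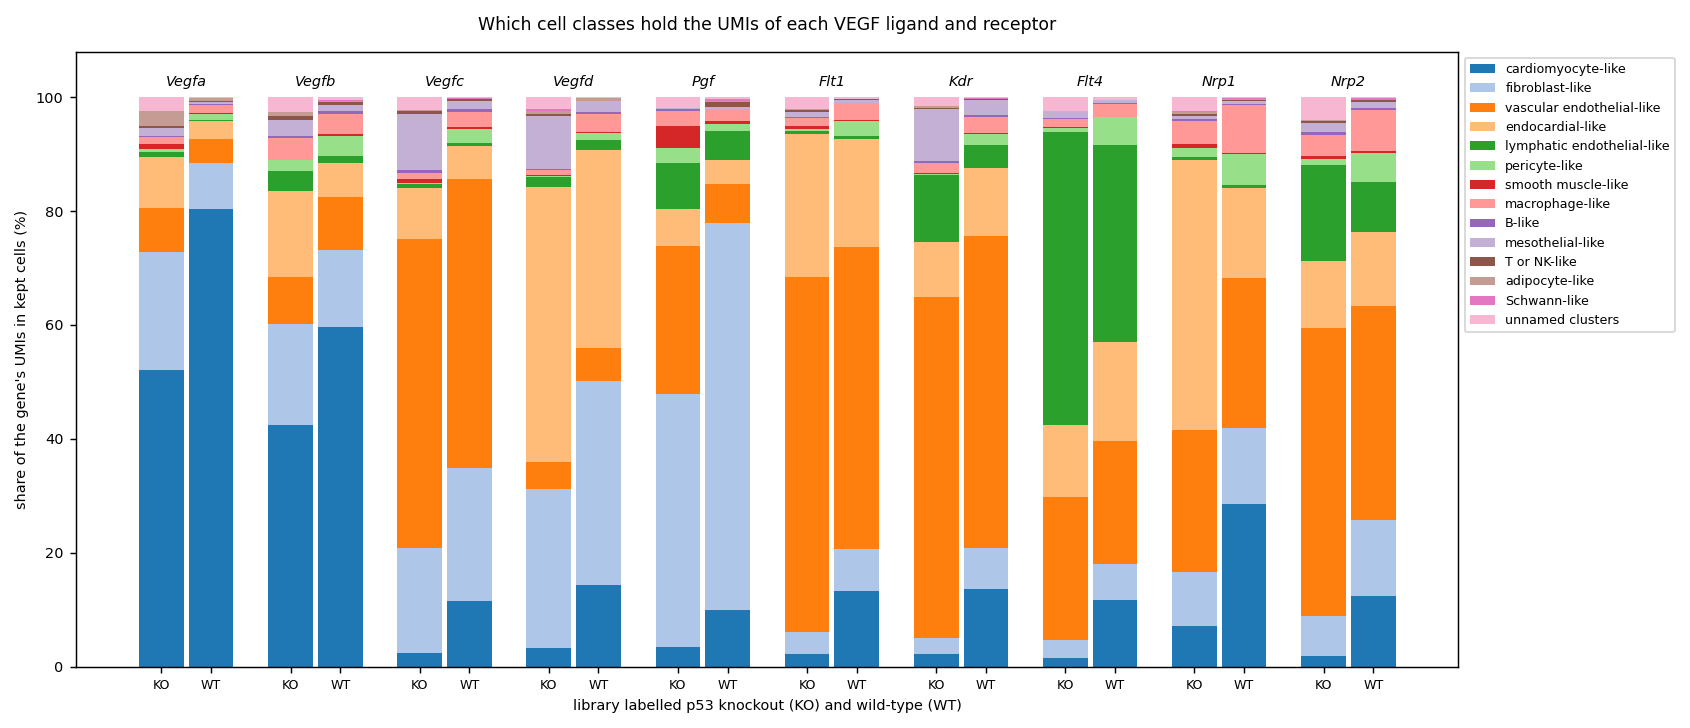
Share of each member's UMIs in kept cells that each cell class holds, in percent, with the library labelled p53 knockout left of the library labelled wild-type for each gene. Cardiomyocyte-like cells hold 52.1% of Vegfa UMIs in the knockout-labelled and 80.4% in the wild-type-labelled library, and most Flt1, Kdr and Flt4 UMIs lie in the 3 endothelial classes of both.

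Seen as sources and targets, cardiomyocyte-like cells held 52.1% of Vegfa UMIs (50.9 to 53.2) in the KO-labelled and 80.4% (79.5 to 81.2) in the WT-labelled library, and fibroblast-like cells 20.7% and 8.05%. This shift runs beside the share of cardiomyocyte-like cells among kept cells, 9.25% and 32.4%. Over all kept cells Vegfa was lower in the KO-labelled library (378 CPM against 521 CPM), while it was higher in cardiomyocyte-like cells. With every class given equal weight, cardiomyocyte-like cells held 54.2% of the summed Vegfa level in the KO-labelled and 43.9% in the WT-labelled library. The 3 endothelial classes together held 88.0% and 72.6% of Flt1 UMIs, 81.2% and 70.7% of Kdr UMIs, 89.2% and 73.5% of Flt4 UMIs, 73.0% and 42.6% of Nrp1 UMIs and 79.2% and 59.4% of Nrp2 UMIs, KO-labelled first. For the ligands these shares were 17.5% and 7.57% for Vegfa, 63.9% and 57.1% for Vegfc, and 54.7% and 42.4% for Vegfd. The endothelial classes thus held most Vegfc UMIs, and lymphatic endothelial-like cells held 51.5% of Flt4 UMIs in the KO-labelled and 34.5% in the WT-labelled library.

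Genes known to act around the VEGF pathway were followed as 7 lists with 75 genes in all, chosen with earlier results of these data known. Their values are class sums and were not taken within shared clusters. In a class of several clusters, a difference in a list gene therefore cannot be told apart from cluster makeup. Of 69 list genes measured in vascular endothelial-like cells, 18 were at least 2-fold higher and 4 at least 2-fold lower in the KO-labelled library. This stands beside 6.24% and 12.4% of all genes, with a median log2 ratio of 0.42 against -0.09 over all genes. Of 9 measured genes for other neuropilin ligands and their co-receptors, 4 were higher and 0 lower: Sema3a, a competing Nrp1 ligand, had 310 CPM in the KO-labelled and 27.7 CPM in the WT-labelled library (3.47), and Sema3f, a ligand of Nrp2, had 404 CPM and 77.4 CPM (2.38). Of 7 genes that process VEGF-C or hold VEGF-A, 4 were higher and 1 lower. Ccn2, a matrix protein that binds VEGF-A, had 233 CPM in the KO-labelled and 44.8 CPM in the WT-labelled library (2.37). Ccbe1, which promotes VEGF-C processing, had 3.09 CPM and 26.1 CPM (-3.02).

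Among the receptor partners in the same class, Nos3, the endothelial nitric oxide synthase, had 682 CPM in the KO-labelled and 254 CPM in the WT-labelled library (1.42). Itgb3, an integrin subunit that pairs with VEGFR2, had 99.7 CPM and 8.55 CPM (3.51). Of 15 measured VEGF-responsive and tip or stalk genes, 5 were at least 2-fold higher and 0 lower. Igfbp3 had 630 CPM in the KO-labelled and 102 CPM in the WT-labelled library (2.63). It was also a leading gene of the cluster that held most KO-labelled but few WT-labelled cells of this class. The Igfbp3 ratio therefore cannot be told apart from cluster makeup, and it was not taken within shared clusters. Dll4, the Notch ligand of tip cells, had 147 CPM and 87.9 CPM (0.74), KO-labelled first. Angpt1, a ligand of the Tie2 receptor, was lower at 22.5 CPM and 65.6 CPM (-1.54), and its receptor gene Tek did not differ beyond counting error (795 CPM and 772 CPM, 0.04, -0.04 to 0.13).

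In cardiomyocyte-like cells 68 list genes were measured, 12 of them at least 2-fold higher and 8 at least 2-fold lower in the KO-labelled library, beside 4.31% and 15.8% of all genes, with a median of 0.02 against -0.25 over all genes. The genes of oxygen sensing upstream of Vegfa were mostly within 2-fold: Hif1a had 266 CPM in the KO-labelled and 283 CPM in the WT-labelled library (-0.09, -0.22 to 0.05), and Epas1 had 75.4 CPM and 140 CPM (-0.89). Egln3, a hypoxia-induced oxygen sensor, was the 1 of 11 that was over 2-fold higher, at 51.3 CPM and 19.4 CPM (1.40). Ppargc1a, a coactivator that can induce Vegfa in muscle, had 947 CPM in the KO-labelled and 810 CPM in the WT-labelled library (0.22, 0.15 to 0.30). Ccn2 had 521 CPM and 71.3 CPM (2.87), and Angptl4 had 4.46 CPM and 24.3 CPM (-2.38), KO-labelled first.

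Endocardial-like cells had 14 of 69 list genes at least 2-fold higher and 6 lower, beside 6.34% and 11.1% of all genes, with a median of 0.08 against -0.11 over all genes. Thbs1, the antiangiogenic thrombospondin, had 285 CPM in the KO-labelled and 8.44 CPM in the WT-labelled library (5.03), Ccn2 had 2409 CPM and 287 CPM (3.07), and Tek had 451 CPM and 823 CPM (-0.87). In lymphatic endothelial-like cells 10 of 50 were higher and 4 lower, beside 8.9% and 8.72% of all genes, with a median of 0.30 against -0.01, and Sema3a had 1696 CPM in the KO-labelled and 610 CPM in the WT-labelled library (1.47). Fibroblast-like cells had 16 of 70 higher and 4 lower, beside 6.58% and 11.6% of all genes (median 0.05 against -0.11). Macrophage-like cells had 15 of 58 higher and 10 lower, beside 7.5% and 10.4% of all genes (median 0.22 against -0.03).

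Across the 20 points given by 10 classes in 2 libraries, each member's profile of log2(CPM + 10) was set against those of 11618 genes. The points share depth and free RNA within a library, and Pearson r is given as a description. Closest to Vegfa were Tmem82 (r = 0.90), Ifrd1 and Gpc1, and closest to Vegfb were Idh3b (0.95), Atp5c1 and Uqcrq. Vegfc lay nearest to Vwa3a (0.85), Mcc and Pdgfd, Vegfd to Ahsg (0.84), Dcn and Sec62, and Pgf to Tril (0.91), Serpine2 and Zscan12. Of the receptor genes, Flt1 was nearest to Klk8 (0.89), Clec14a and Samd12, Kdr to Rasgrf2 (0.91), Ablim3 and Rassf9, and Flt4 to Sema3a (0.96), Nts and Smad1. Nrp2 was nearest to Ldb2 (0.93), Sh2d3c and D5Ertd615e. Nrp1 had the lowest best value, with another member, Flt1, as its nearest gene (0.75).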

How the data were processed

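Whole-number UMI counts per gene and barcode were deposited by the authors for 2 libraries. The mouse build mm10 and the programs Seurat and Cell Ranger are listed per the submitters' processing notes, and their versions are not given in the sources used here. A 10x Chromium 3′ kit is named per the labels, but the deposited barcodes have 3 blocks of 9 bases, so the kit is uncertain. Gene positions are from GENCODE vM21, which matched 32445 of 32589 gene identifiers.

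Cells with at least 200 genes and at most 50% mitochondrial UMIs were kept. Scrublet scores (scanpy 1.11.5, expected rate 0.08) marked 0 barcodes at the automatic threshold, so the 8% with the highest scores were removed, 808 from the KO-labelled and 1284 from the WT-labelled library; this share is fixed and does not show that they were doublets. Both libraries were clustered together without integration (2000 variable genes without the members, 30 components, 15 neighbours, leidenalg 0.10.2 at resolution 1) into 22 clusters. A cluster was named where at least 3 markers of a class were at least 2-fold over the other cells, and 3 clusters with mixed or no markers stayed unnamed. These naming thresholds were set with the data known.

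Levels are CPM of nuclear-encoded UMIs summed per class and library. Log2 ratios are KO-labelled over WT-labelled with 0.5 UMI added to each sum, for at least 20 UMIs over both. Intervals are exact (Poisson, Clopper-Pearson, conditional binomial) and cover counting error only; PCR and sampling of animals are not in them. The ratio intervals were tested on counts simulated with Poisson error alone. That checks the calculation and cannot show spread between cells or animals. Named genes were the members, up to 4 genes with most UMIs plus the most positive and negative ratio of each list, and the 3 nearest profiles. The members and lists were chosen with earlier results of these data known.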

Additional observations from a re-analysis of the deposited data

Results flagged for a closer look

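For 7 members the libraries differed in opposite directions in 2 cell classes, each with a counting interval on its own side of 0. The difference between the classes was not tested, since each label has 1 library, and the values are differences of log2 ratios (KO-labelled over WT-labelled). Vegfa was higher in fibroblast-like (0.82) and lower in B-like cells (-2.003), 2.82 apart. Vegfc was higher in mesothelial-like (0.84) and lower in pericyte-like cells (-1.64), 2.485 apart, the pericyte-like ratio resting on 6 and 45 UMIs. Pgf was higher in vascular endothelial-like (1.67) and lower in fibroblast-like cells (-0.69), 2.36 apart. Flt1 was higher in vascular endothelial-like (0.64) and lower in mesothelial-like cells (-0.75), 1.39 apart. Kdr was higher in lymphatic endothelial-like (0.40) and lower in fibroblast-like cells (-1.19), 1.59 apart. Nrp1 was higher in endocardial-like (0.77) and lower in mesothelial-like cells (-1.65), 2.42 apart. Nrp2 was higher in vascular endothelial-like (0.84) and lower in mesothelial-like cells (-0.76), 1.60 apart. Several lower values lie in classes whose level was not above that of B-like cells in either library: Vegfc in pericyte-like, Kdr in fibroblast-like, and Flt1, Nrp1 and Nrp2 in mesothelial-like cells; for Vegfa the lower class is the B-like background itself. Within shared clusters some of these ratios turned: Pgf had 0.64 and 0.12 in fibroblast-like clusters 0 and 4, and Nrp1 had -0.47 in endocardial-like cluster 3. At the finer resolution Nrp1 had -0.14 in the shared endocardial-like cluster, with an interval that holds 0. Kdr did not turn but had only -0.60 and -0.26 in fibroblast-like clusters 0 and 4, with intervals that hold 0.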

How the results depend on the processing

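No paired analysis was possible because each label has 1 library and the libraries share only the number 1; no replicate could be left out. Of the class ratios recomputed under other settings of the filters, clustering, scaling and thinning, 653 stayed within the main counting interval, 42 moved outside it, and 1 of over 2-fold turned round: Vegfb in endocardial-like cells, 0.11 after thinning to 500 UMIs. Of 59 measured ratios whose interval excluded 0, 4 others changed sign: under median-of-ratios scaling Vegfb (0.0063) and Nrp1 (0.04) in cardiomyocyte-like cells, without doublet removal Flt1 in macrophage-like cells (0.05), and with at least 500 genes per cell Nrp1 in B-like cells (0.01). Flt4 in pericyte-like cells, whose interval held 0, had -0.22 after thinning. Vegfa in cardiomyocyte-like cells had log2 ratios of 0.45 with at least 500 genes per cell, 0.63 with at most 20% mitochondrial UMIs, 0.69 without cluster 9 and 0.79 under median-of-ratios scaling. Vegfb there had -0.49, -0.60 and 0.0063 under the last 3 of these. Flt1 in vascular endothelial-like cells had 0.59 at resolution 2 and 0.73 under median-of-ratios scaling. Nrp1 in endocardial-like cells had 0.64 after thinning and 0.88 under that scaling, which also moved the list median of cardiomyocyte-like cells to 0.28. Ratios within single clusters were added after seeing the data. Vegfa in cardiomyocyte-like cells had 0.62 in cluster 2 and 0.85 in cluster 9, and Vegfb -0.48 and -0.55. In vascular endothelial-like clusters 1 and 6, Vegfc had -0.77 and -1.10 and Kdr 0.29 and 0.43, and Flt1 had 0.20 in cluster 6. In endocardial-like cluster 3, Vegfd had -1.05, Nrp1 -0.47 and Kdr 0.35, with Nrp1 and Kdr both opposite in sign to the class; the cause of these shifts was not tested. At resolution 2 the shared endocardial-like cluster had -0.14 for Nrp1 and 0.38 for Kdr, with intervals that hold 0. UMI shares by class stayed the same in 85 comparisons and moved in 15, and levels in 95 and 25; of the thinned shares of cells, 19 moved and 1 stayed when thinning was left out. Pgf had the fewest UMIs of the 10 members in both libraries (378 in the KO-labelled and 335 in the WT-labelled library).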
